A study of Mus musculus with 48 samples.

Results

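Cidea, Cideb and Cidec encode the CIDE proteins, which sit on lipid droplets and the endoplasmic reticulum. They are 3 of the 37074 gene names of the array and are measured by 4 of its 56605 non-control probes, 1 for Cidea, 1 for Cidec and 2 for Cideb. The genes were selected by name and chosen on earlier results of these same arrays, which had shown their levels over the groups. Their levels and differences are therefore described here without a test.

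CIDE proteins gather where lipid droplets touch and pass triglyceride from the smaller droplet to the larger one, so that droplets grow and become harder for lipases to reach. CIDEC, also called FSP27, and CIDEA are best known from white and brown adipose tissue and appear in fatty liver. CIDEB is the form that the healthy hepatocyte makes, where it is known for a part in loading VLDL particles with lipid and in the transport of SREBP.

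The study asked how the p110α subunit of phosphoinositide 3-kinase, which relays the insulin signal, shapes gene expression in the liver, in healthy mice and in mice with diet-induced obesity. Liver RNA of 48 mice was hybridized on one-colour Agilent arrays, 1 per mouse, in 8 groups of 6. Mice without p110α in hepatocytes (p110αhep-/-, labelled LKO) carried 2 floxed alleles (p110αflox/flox) and 1 copy of albumin-Cre, and their albumin-Cre-/- littermates with the same floxed alleles were the controls (p110αhep+/+, labelled LWT). All were males kept at 23 °C in a 12-h light and 12-h dark cycle, and received the control diet D12450J (CTRL) or the high-fat diet D12492 with 60% of calories from fat (HFD) from the age of 12 weeks and for 12 weeks. At Zeitgeber time 16 the mice were killed, either fed or after 24 h without food. Albumin-Cre acts in hepatocytes, so the other cells of the liver keep p110α. In whole liver RNA, fewer cells of a type and less RNA per cell cannot be told apart.

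On each array, 52.3% to 59.3% of the non-control spots were well above background and none was saturated. Replicate 2 of the fed p110αhep+/+ mice on CTRL diet and replicate 3 of the fed p110αhep-/- mice on HFD correlated best with the mean of the fed p110αhep-/- mice on CTRL diet, and the other 46 arrays with that of their own group. For Cidea and Cidec, the results of these groups that moved most are also given without the 2 arrays. The probe of Pik3ca, which encodes p110α, had group means of 12.74 to 13.32 in p110αhep+/+ and 13.23 to 13.50 in p110αhep-/- mice on the log2 scale. It was not lower in p110αhep-/- mice and gives no check of the deletion. Its mean was higher in p110αhep-/- mice in each diet and nutritional state, most of all in fed mice on HFD (13.32 against 12.74, without overlap). The 6 hepatocyte markers (Alb, Ttr, Apoa1, Cps1, Tat and Serpina1a) were well above background on all 48 arrays.

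The probes are shown by their first 30 bases, since a level here is only the level of the RNA each one matches. The Cidec probe, at chr6:113374693-113374752 (mm9, minus strand), starts at base 1579 of the transcript and matches both RefSeq transcripts that the file lists for the gene, so it cannot separate them. The 2 Cideb probes lie at opposite ends of the transcript, at base 52 (chr14:56377150-56377209) and base 1063 (chr14:56372942-56373001, both mm9, minus strand), and are called the 5' and the 3' probe. Which exon each probe falls in is not given in the sources used here.
Cidec probe: tgcctgaatggacacagttcctgttctcct
Cideb 5' probe: ttatacaaaaaagcaagaacaacagagaag
Cideb 3' probe: ggtttttactgacgcctacccctaagatcc

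The 250 bases before each RefSeq start of Cidec and Cideb (GRCm38.p6, minus strand) are shown because Cidec differed far more between the groups than Cideb did. Cidec has 2 starts, at windows chr6:113435761-113436010 and chr6:113434765-113435014, and Cideb 1, at chr14:55758425-55758674. Capitals mark matches, on either strand, to any of 7 motifs that were picked with the windows in view: the nuclear receptor half-site AGGTCA, the E-box CACGTG, the forkhead motif GTAAACA, the C/EBP motif TTGCNNAA, the CCAAT box CCAAT, the GC box GGGCGG and the TATA box TATAAA.
Cidec, first window: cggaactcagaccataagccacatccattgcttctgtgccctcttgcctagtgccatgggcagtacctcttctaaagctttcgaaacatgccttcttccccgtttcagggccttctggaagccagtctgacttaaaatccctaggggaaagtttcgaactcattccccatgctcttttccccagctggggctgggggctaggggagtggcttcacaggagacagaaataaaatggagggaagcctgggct
Cidec, second window: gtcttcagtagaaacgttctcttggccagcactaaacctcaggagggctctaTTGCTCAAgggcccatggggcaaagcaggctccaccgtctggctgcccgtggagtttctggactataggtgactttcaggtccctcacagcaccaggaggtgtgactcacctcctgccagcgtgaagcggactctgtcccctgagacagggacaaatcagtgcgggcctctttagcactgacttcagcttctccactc
Cideb window: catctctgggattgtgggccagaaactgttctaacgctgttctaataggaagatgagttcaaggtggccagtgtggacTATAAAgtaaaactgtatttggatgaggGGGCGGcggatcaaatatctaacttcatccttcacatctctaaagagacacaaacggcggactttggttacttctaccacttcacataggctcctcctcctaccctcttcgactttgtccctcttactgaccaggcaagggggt

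The second Cidec window held the C/EBP motif, which 9.56% of the 32851 promoter windows of the same length hold. The Cideb window held the GC box and the TATA box, which 32.7% and 12.4% of windows hold. The nuclear receptor half-site, the E-box, the forkhead motif and the CCAAT box, found in 14.0%, 6.02%, 3.17% and 33.8% of windows, were in none of the 3. A match is a description of the letters and not evidence that a factor binds there.

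Cidea was a bright signal in p110αhep+/+ livers and close to background in p110αhep-/- livers. Its probe (chr18:67527351-67527410, mm9, plus strand) was well above background on all 24 arrays of p110αhep+/+ mice. Among p110αhep-/- mice it was so on 1 of 6 arrays of the fed and 4 of 6 of the fasted mice on CTRL diet, and on 4 of 6 and 5 of 6 on HFD. Unnormalized median signals ran from 534 to 35676 in p110αhep+/+ mice and from 30 to 137 in p110αhep-/- mice, while the local background of the arrays was 22 to 42.

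Normalized levels of Cidea are given on the log2 scale, as lowest, median and highest of 6 arrays. In p110αhep+/+ mice on CTRL diet they were 9.18, 11.95 and 13.18 when fed and 9.54, 11.16 and 14.00 when fasted. On HFD, p110αhep+/+ mice had 12.02, 13.25 and 15.02 when fed and 13.54, 14.42 and 15.22 when fasted. The arrays of p110αhep+/+ mice on CTRL diet thus spread widely, and those on HFD lay at the upper end of that spread or above it.

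In p110αhep-/- mice the Cidea levels were 4.97, 5.22 and 5.81 in fed and 5.34, 5.65 and 6.25 in fasted mice on CTRL diet. They were 5.23, 5.95 and 6.86 in fed and 5.61, 6.22 and 6.99 in fasted mice on HFD. No array of a p110αhep-/- mouse reached the lowest array of a p110αhep+/+ mouse. Ordered by mean, the 4 groups of p110αhep+/+ mice came first (HFD fasted 14.39 ± 0.71, HFD fed 13.28 ± 1.00, CTRL fed 11.73 ± 1.38, CTRL fasted 11.59 ± 1.71; SD, n = 6) and the 4 groups of p110αhep-/- mice last (6.23 ± 0.54, 5.96 ± 0.60, 5.70 ± 0.30 and 5.29 ± 0.29 for HFD fasted, HFD fed, CTRL fasted and CTRL fed). Only the step between the genotypes separated neighbours in this order, and all other neighbours overlapped.

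**Figure D1:**
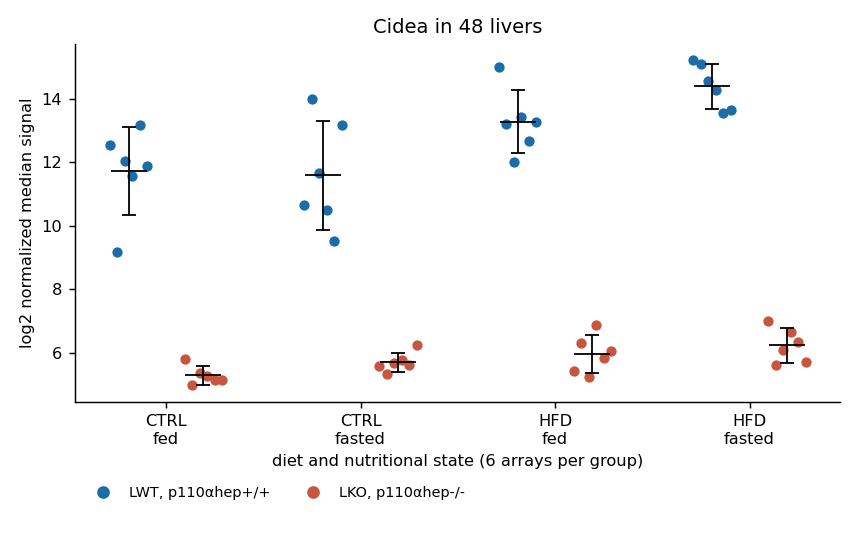
Cidea in each of the 48 livers, as log2 normalized median signal (vertical axis) by diet and nutritional state (horizontal axis), with blue points for p110αhep+/+ and red points for p110αhep-/- mice. Each point is 1 mouse and the black bars give the group mean ± SD (n = 6). All p110αhep-/- arrays lie between 4.97 and 6.99, where many signals are not well above background, and all p110αhep+/+ arrays lie at 9.18 or higher.

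The fitted genotype difference of Cidea, p110αhep-/- minus p110αhep+/+ with arrays weighted by their quality, was -6.68 ± 0.49 (SE, log2) in fed and -5.83 ± 0.47 in fasted mice on CTRL diet. On HFD it was -7.23 ± 0.49 in fed and -8.26 ± 0.50 in fasted mice. As folds these are 102, 56.8, 151 and 306, and they rest on a denominator near background. With the p110αhep-/- arrays that were not above background set to the lowest level that counted as above it on the same array, the unweighted differences of means were -6.35, -5.86, -7.31 and -8.16. These differ from the fitted values in the array weights as well as in the floor. In fasted p110αhep-/- mice on HFD the mean was 6.23 with and without the floor. Without the 2 arrays that stood apart, the fed differences were -6.98 on CTRL diet and -7.17 on HFD. From Feature Extraction's processed signal, which subtracts background, they were -8.83 and -7.23 in fed and fasted mice on CTRL diet, so the size of the fold depends on how background is handled while its sign was negative in every alternative tried.

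HFD went with more Cidea in p110αhep+/+ mice, by 1.30 ± 0.46 (SE, log2) when fed and 2.97 ± 0.47 when fasted. Each SE draws on an estimate of the spread shared by all 8 groups. The SDs of Cidea ran from 0.29 to 1.71 and were larger in p110αhep+/+ mice. The SEs of differences among p110αhep+/+ mice, for diet as for fasting, are therefore too small for Cidea. The HFD and CTRL arrays overlapped in both states, and the array on HFD was higher than that on CTRL diet on 6 of 6 slides in each. The size differed between the wash batches of the arrays. It was 2.59 in batch 1 and 0.51 in batch 2 for fed mice, and 3.72 and 1.89 for fasted mice, with 3 arrays per group and batch. The fed difference was 1.00 without the 2 arrays that stood apart. In p110αhep-/- mice the difference was 0.74 ± 0.51 when fed and 0.54 ± 0.50 when fasted, near background. The difference between the genotypes in the HFD effect was -0.56 ± 0.69 in fed and -2.43 ± 0.69 in fasted mice. The fed value was -0.19 without the 2 arrays that stood apart, ranged from -0.83 to -0.25 without replicate 5 or replicate 2 of the fed p110αhep+/+ mice on CTRL diet, and turned to 0.66 with the processed signal.

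For Cidea, the difference fasted minus fed was -0.49 ± 0.47 (SE, log2) in p110αhep+/+ mice on CTRL diet, where the fasted array was higher on 4 of 6 slides and lower on 2, and 1.18 ± 0.46 on HFD, where the fasted array was higher on 6 of 6 slides. For p110αhep-/- mice it was 0.36 ± 0.48 on CTRL diet and 0.16 ± 0.53 on HFD. Fed and fasted arrays overlapped in all 4 cases. On CTRL diet the value for p110αhep+/+ mice was -0.80 ± 0.45 without the 2 arrays that stood apart, and it ranged from -0.91 to -0.04 with single arrays left out, reached without replicates 2 and 5 of the fasted group.

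Cidec, the CIDE protein of white adipose tissue, was well above background on all 48 arrays. Fed p110αhep-/- mice had far less of it than fed p110αhep+/+ mice on both diets. Fasted p110αhep-/- mice on CTRL diet were the exception, with levels within the range of p110αhep+/+ mice.

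On the log2 scale, the lowest, median and highest Cidec levels in p110αhep+/+ mice on CTRL diet were 10.31, 12.30 and 12.83 when fed and 12.07, 12.53 and 13.49 when fasted. On HFD they were 13.50, 13.91 and 14.72 when fed and 13.51, 13.91 and 14.65 when fasted. The lowest of these 12 HFD arrays was just above the highest of the 12 CTRL arrays.

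In p110αhep-/- mice the Cidec levels were 7.58, 8.03 and 9.06 in fed and 11.22, 12.20 and 13.85 in fasted mice on CTRL diet. They were 8.73, 9.11 and 11.09 in fed and 8.94, 10.18 and 11.95 in fasted mice on HFD. The 6 fasted p110αhep-/- mice on CTRL diet all lay above the 6 fed ones, and both HFD groups had means between those of the CTRL groups.

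By mean, Cidec ran from p110αhep+/+ mice on HFD (13.96 ± 0.43 fasted and 13.96 ± 0.45 fed; SD, n = 6) through p110αhep+/+ CTRL fasted (12.66 ± 0.65), p110αhep-/- CTRL fasted (12.51 ± 1.1) and p110αhep+/+ CTRL fed (11.87 ± 1.07) to p110αhep-/- HFD fasted (10.24 ± 1.00), HFD fed (9.48 ± 0.94) and CTRL fed (8.13 ± 0.59). Neighbours in this order overlapped except at the step from HFD to CTRL diet within p110αhep+/+ mice, where the gap was between 13.50 and 13.49.

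**Figure D2:**
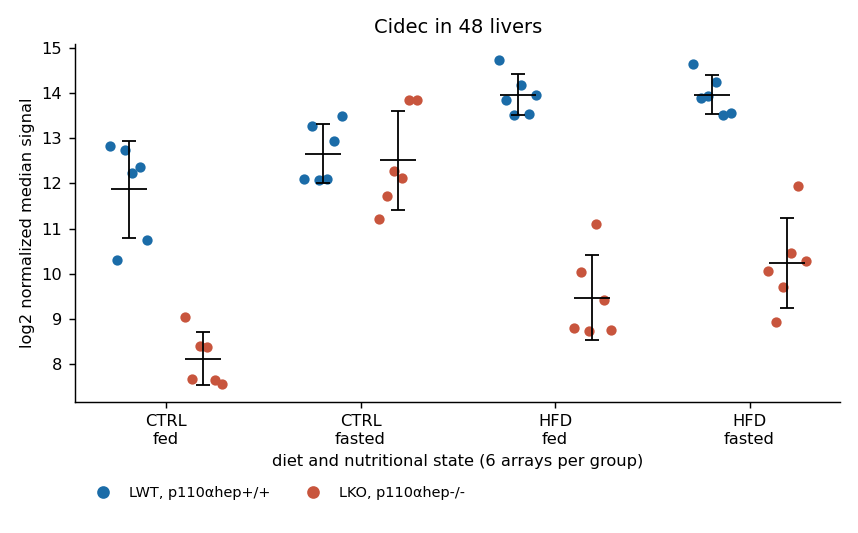
Cidec in each of the 48 livers, as log2 normalized median signal (vertical axis) by diet and nutritional state (horizontal axis), with blue points for p110αhep+/+ and red points for p110αhep-/- mice. Each point is 1 mouse and the black bars give the group mean ± SD (n = 6). The p110αhep-/- mice fasted on CTRL diet (mean 12.51) lie with the p110αhep+/+ mice, while the other p110αhep-/- groups (means 8.13 to 10.24) lie lower.

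The fitted genotype difference of Cidec was -3.86 ± 0.42 (SE, log2) in fed mice on CTRL diet, -4.39 ± 0.42 in fed mice on HFD and -3.85 ± 0.44 in fasted mice on HFD, which are 14.5-fold, 21.0-fold and 14.4-fold lower levels in p110αhep-/- mice. In fasted mice on CTRL diet it was -0.36 ± 0.41, and the array of the p110αhep-/- mouse was the lower one on 4 of 6 slides. Within the wash batches this last difference was 0.17 and -0.48. Without the 2 arrays that stood apart, the fed differences were -4.08 on CTRL diet and -4.32 on HFD.

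Fasting was accompanied by a Cidec difference of 4.08 ± 0.42 (SE, log2), or 16.9-fold, in p110αhep-/- mice on CTRL diet, with the fasted array higher on 6 of 6 slides. The corresponding difference was 0.59 ± 0.41 in p110αhep+/+ mice on CTRL diet, 0.01 ± 0.40 in p110αhep+/+ mice on HFD and 0.56 ± 0.46 in p110αhep-/- mice on HFD. The genotypes differed in this fasting effect by 3.49 ± 0.59 on CTRL diet and by 0.55 ± 0.61 on HFD.

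HFD went with more Cidec in p110αhep+/+ mice, by 1.94 ± 0.40 (SE, log2) when fed and 1.36 ± 0.41 when fasted, and in fed p110αhep-/- mice, by 1.40 ± 0.44. Each of these differences was positive on 6 of 6 slides. In fasted p110αhep-/- mice HFD went with less Cidec, -2.12 ± 0.44, and the difference was negative on 6 of 6 slides. The genotypes differed in the HFD effect by -3.48 ± 0.60 in fasted mice and by -0.54 ± 0.60 in fed mice. In fasted p110αhep+/+ mice the HFD difference was 1.94 in wash batch 1 and 0.66 in batch 2.

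Cideb, the hepatocyte form, was well above background on all 48 arrays with both probes and varied little. Group means of the 3' probe spanned 15.05 to 15.60 and those of the 5' probe 9.31 to 9.94 on the log2 scale. Both probes had lower means in p110αhep-/- than in p110αhep+/+ mice in every diet and nutritional state, and the lowest group for both was fasted p110αhep-/- mice on HFD.

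With the 3' probe, the lowest, median and highest log2 levels in p110αhep+/+ mice on CTRL diet were 15.31, 15.41 and 15.55 when fed and 15.42, 15.43 and 15.52 when fasted. On HFD they were 15.48, 15.60 and 15.72 when fed and 15.47, 15.56 and 15.68 when fasted. The 4 groups of p110αhep+/+ mice overlapped each other.

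In p110αhep-/- mice the 3' probe gave 15.04, 15.12 and 15.41 in fed and 15.04, 15.25 and 15.40 in fasted mice on CTRL diet. It gave 15.12, 15.35 and 15.49 in fed and 14.94, 15.02 and 15.30 in fasted mice on HFD. All neighbours in the order of the 8 group means overlapped with either probe.

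**Figure D3:**
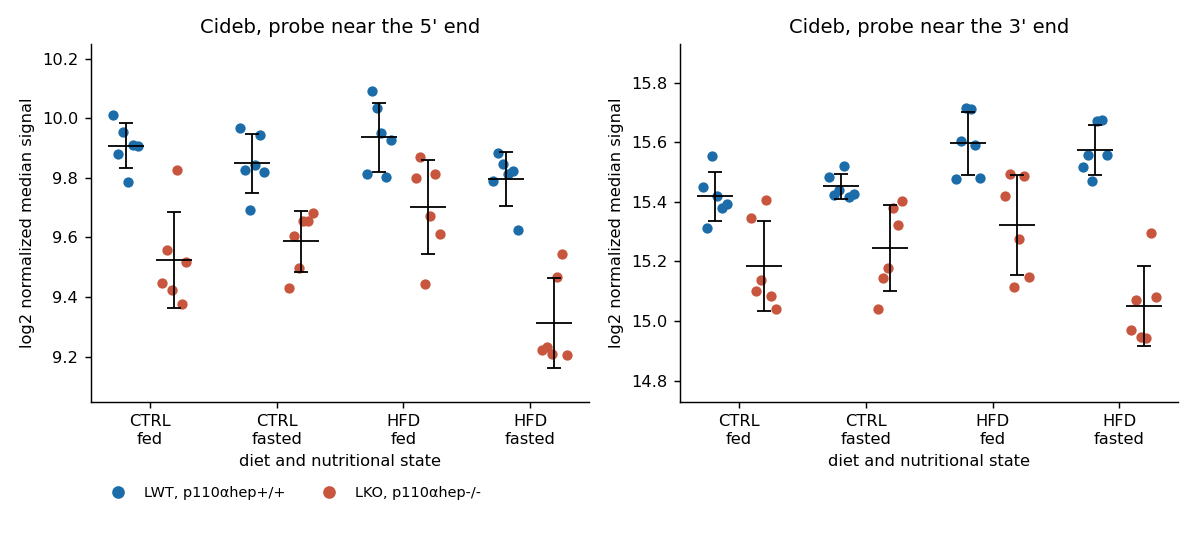
Cideb in each of the 48 livers, measured near the 5' end (left) and near the 3' end (right) of the transcript, as log2 normalized median signal (vertical axes, each spanning 1.2 units) by diet and nutritional state (horizontal axes). Blue points are p110αhep+/+ and red points p110αhep-/- mice, and the black bars give the group mean ± SD (n = 6). The lowest group on both sides is p110αhep-/- fasted on HFD, at 9.31 and 15.05.

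The genotype difference of the Cideb 3' probe was -0.25 ± 0.07 (SE, log2) and -0.23 ± 0.07 in fed and fasted mice on CTRL diet, and -0.23 ± 0.07 and -0.53 ± 0.07 in fed and fasted mice on HFD. The 5' probe gave -0.40 ± 0.07, -0.27 ± 0.07, -0.19 ± 0.07 and -0.50 ± 0.07 for the same comparisons. The array of the p110αhep-/- mouse was the lower one on 6 of 6 slides with each probe in each comparison. The largest of these differences, in fasted mice on HFD, was 1.44-fold by the 3' probe and 1.42-fold by the 5' probe.

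In fasted p110αhep-/- mice HFD went with less Cideb, by -0.18 ± 0.07 with the 3' probe and -0.26 ± 0.07 with the 5' probe, while in fed p110αhep-/- mice it went with more, 0.18 ± 0.07 and 0.23 ± 0.07 (SE, log2). In p110αhep+/+ mice the probes did not give the same picture. The HFD difference was 0.16 ± 0.07 when fed and 0.12 ± 0.07 when fasted with the 3' probe, and 0.02 ± 0.06 and -0.03 ± 0.07 with the 5' probe. The fasted 3' value took the other sign with the processed signal (-0.04) and with median scaling (-0.01).

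Fasting on HFD went with less Cideb in p110αhep-/- mice, -0.32 ± 0.07 with the 3' probe and -0.44 ± 0.07 with the 5' probe (SE, log2), negative on 6 of 6 slides with both. The other fasting differences lay between -0.02 and 0.04 for the 3' probe and between -0.13 and 0.05 for the 5' probe. The effect of fasting thus differed between the diets in p110αhep-/- mice by -0.35 ± 0.10 and -0.49 ± 0.10, and in p110αhep+/+ mice by -0.04 ± 0.09 and -0.05 ± 0.09.

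HFD in p110αhep-/- mice went with more Cidec in fed and less in fasted mice. Both Cideb probes had the same signs, with a fed difference of only 0.06 and 0.05 in wash batch 2. The fasting difference on HFD in p110αhep-/- mice was negative for Cideb. For Cidec it was 0.56 ± 0.46 (SE, log2), with overlapping groups and slides from -2.15 to 3.15. Cidea differed in that its fasting differences in p110αhep-/- mice were small on either diet and its levels stayed near background.

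**Figure D4:**
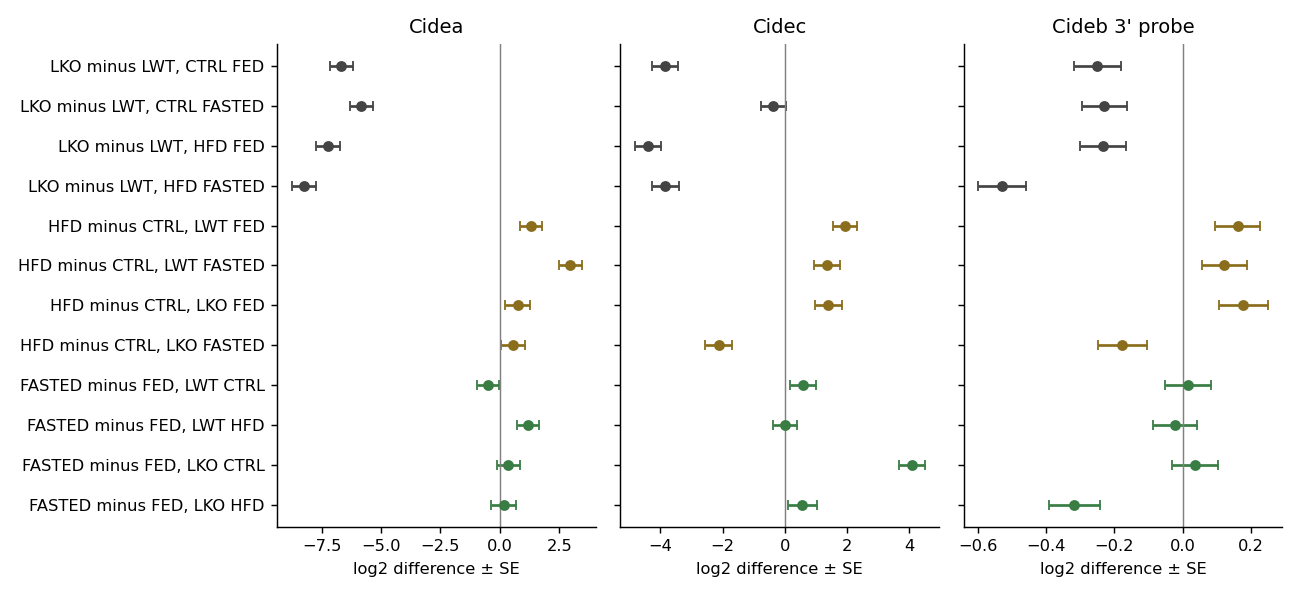
Fitted log2 differences ± SE (horizontal axes, a different scale in each panel) of Cidea, Cidec and the Cideb 3' probe for the 12 comparisons of 2 groups (vertical axis), with genotype in grey, diet in brown and nutritional state in green. Cidea has genotype differences of -5.83 to -8.26 in all 4 settings, Cidec has -0.36 in fasted mice on CTRL diet and -3.85 to -4.39 in the others, and Cideb stays between -0.53 and 0.18.

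Of the 4 probes, 2 did not overlap between the genotypes in fed mice on CTRL diet, 3 in fasted mice on CTRL diet, 2 in fed mice on HFD and 4 in fasted mice on HFD. Over all 20485 genes, the share without overlap was 6.21%, 10.3%, 13% and 14% in these comparisons. For HFD, 1 probe (Cidec) did not overlap in fed and 1 (Cidec) in fasted p110αhep+/+ mice and 0 in p110αhep-/- mice, against 9.51% and 5.86% of all genes in p110αhep+/+ and 3.9% and 4.1% in fed and fasted p110αhep-/- mice. For fasting, 1 probe (Cidec) did not overlap in p110αhep-/- mice on CTRL diet, where 15.6% of all genes did not, and 0 in the other 3 settings, where the shares were 11.8% and 10.9% in p110αhep+/+ mice on CTRL diet and HFD and 8.44% in p110αhep-/- mice on HFD. The genes were chosen by differences of this kind, so these shares are only the background to the counts.

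Cidea and Cidec also varied more between mice of the same group than most genes. The within-group SD was 0.94 for Cidea and 0.82 for Cidec on the log2 scale, above that of 99.8% and 99.7% of genes, whose median was 0.15. For Cideb it was 0.12 with either probe, above that of 25.6% and 27.4% of genes. Across the 48 deviations from the group means, Cidea and Cidec had r = 0.57 (rho = 0.64), the 2 Cideb probes had r = 0.61 (rho = 0.54), and Cidea and the Cideb 3' probe had r = -0.02 (rho = -0.02). These are descriptions over arrays that share groups, slides and normalization. Group SDs of Cidea were 0.71 to 1.71 in p110αhep+/+ mice and 0.29 to 0.60 in p110αhep-/- mice, whose levels were near background. Its pooled SD and its correlations by deviations, here and below, therefore follow mainly the arrays of p110αhep+/+ mice.

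The genes whose levels ran most like Cidea over the 48 arrays, among 20457 compared, were Wfdc2 (r = 0.96), B430212C06Rik (0.95), Anxa8 (0.94), Ermp1 (0.94) and Mas1 (0.93). Cidea falls into separate levels by genotype, and these values include that step. For Cidec they were Serinc2 (0.93), Pex11a (0.92), Atp9a (0.91), Osbpl3 (0.91) and Gal3st1 (0.90), and for the Cideb 3' probe BC004004 (0.90), Gpd1 (0.88), Nudt1 (0.86), Hsd17b12 (0.86) and Rtn4ip1 (0.85). Pex11a is a protein of the peroxisome membrane and Gpd1 makes the glycerol 3-phosphate used for triglyceride.

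Among deviations from the group means, which leave out the differences between groups, the closest genes to Cidea were B430212C06Rik (r = 0.86), Pls1 (0.68), Lgals1 (0.67), Secisbp2l (0.65) and Gal3st1 (0.65). Without the wash correction Secisbp2l was in place 44, with r = 0.57. For Cidec they were Cgref1 (0.82), Tmem120a (0.80), Wdr73 (0.80), Atp9a (0.79) and 2010003K11Rik (0.79), and for Cideb Apoc4 (0.73), Wdr18 (0.72), Rfx4 (0.72) and Tst (0.71). Atp9a was thus among the 5 closest to Cidec by both measures and B430212C06Rik among the 5 closest to Cidea.

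Other proteins of lipid droplets were compared as a list of 24 genes of coat proteins, lipases and their cofactors, all of which passed the filter. These genes were tested with limma and Benjamini-Hochberg adjustment over 30792 probes, and were called where the adjusted p did not exceed 0.05 and the groups differed by more than 1.5-fold. In fed mice 3 of the 24 were lower and 0 higher in p110αhep-/- mice on CTRL diet, where 3.72% of all genes were called in either direction. On HFD 7 were lower and 1 higher, where 6.24% of all genes were called. The median of the list was -0.31 and -0.37 in these 2 comparisons, beside 0.02 and 0.03 over all genes. Of the 7 lower genes on HFD, Mgll fell under the fold threshold with the processed signal (-0.52) and with median scaling (-0.57). Hsd17b13 did so when all probes of a gene were taken by their median (-0.58).

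Pnpla3, a lipase-like protein of the droplet surface, was lower in fed p110αhep-/- mice by -2.75 ± 0.32 on CTRL diet (SE, log2; limma adjusted p = 1.99e-08) and -3.45 ± 0.32 on HFD (2.38e-11). Its level in fed p110αhep-/- mice on HFD was near background (mean 5.59, well above background on 4 of 6 arrays). Plin4, a perilipin coat protein, fell by 2.68 ± 0.28 and 2.80 ± 0.28 (limma adjusted p = 1.68e-09 and 1.47e-10). Fitm1, a triglyceride-binding protein of the endoplasmic reticulum, fell by 2.47 ± 0.18 and 1.44 ± 0.18 (limma adjusted p = 8.64e-14 and 4.4e-08). Plin2, the main perilipin of hepatocytes, fell by 0.89 ± 0.18 and Plin3 by 0.85 ± 0.10 on HFD, where Hsd17b11, a dehydrogenase on droplets, rose by 0.88 ± 0.12 (limma adjusted p = 0.000197, 4.92e-09 and 5.04e-07).

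In fasted mice the calls numbered 3 for CTRL diet and 5 for HFD. On CTRL diet 2 were lower and 1 higher in p110αhep-/- mice (3.24% of all genes called, list median -0.02, all genes 0.01), namely Fitm1 at -1.81 ± 0.18, Plin4 at -0.91 ± 0.27 and Hilpda, an inhibitor of adipose triglyceride lipase, at 0.81 ± 0.13 (SE, log2; limma adjusted p = 2.16e-10, 0.0109 and 1.2e-05). On HFD 5 were lower and 0 higher (6.54% of all genes, list median -0.20, all genes 0.03), led by Fitm1 at -1.99 ± 0.19 and Plin4 at -1.68 ± 0.29 and followed by Plin2, Mgll, which cleaves monoacylglycerol, and Fitm2, at -0.78, -0.76 and -0.64 (limma adjusted p = 4.99e-11, 1.38e-05, 0.00113, 5.32e-07 and 6.89e-05). Fitm2 fell just under the fold threshold without array weights, at -0.58, and at -0.56 when all probes of a gene were taken by their median.

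HFD was accompanied by 2 higher and 1 lower genes of the list in fed p110αhep+/+ mice (3.76% of all genes), where Plin4 rose by 1.14 ± 0.27, Plin2 rose by 1.01 ± 0.17 and Pnpla3 fell by 1.01 ± 0.30 (SE, log2; limma adjusted p = 0.00154, 3.22e-05 and 0.014). In fasted p110αhep+/+ mice Plin4 rose by 1.00 ± 0.27 and G0s2, another inhibitor of that lipase, fell by 1.15 ± 0.37 (2 of 24, 2.81% of all genes; limma adjusted p = 0.00933 and 0.032). The call of G0s2 was lost without array weights and without the filter on dim probes (limma adjusted p = 0.0646 and 0.0637), and that of Pnpla3 in fed mice without array weights and with the processed signal (0.0592 and 0.0896). In fed p110αhep-/- mice 3 were higher and 1 lower (2.32% of all genes), with Fitm1 at 1.30 ± 0.19, Plin4 at 1.01 ± 0.29, Plin2 at 0.65 ± 0.19 and Pnpla3 at -1.71 ± 0.34 (limma adjusted p = 4.62e-06, 0.0175, 0.021 and 0.000401). The Pnpla3 level on HFD was near background there.

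In fasted p110αhep-/- mice, where Cidec was lower on HFD than on CTRL diet, 3 genes of the list were also lower on HFD and 0 higher (1.89% of all genes). G0s2 fell by 2.24 ± 0.40, Plin2 by 1.07 ± 0.19 and Hilpda by 0.82 ± 0.14 (SE, log2; limma adjusted p = 0.000153, 0.000132 and 0.000109). The list medians for HFD were -0.12 in fasted p110αhep-/- and 0.03 in fasted p110αhep+/+ mice, and close to 0 in fed mice of both genotypes. Over all genes the median was -0.01 and -0.02 in fed and fasted p110αhep+/+ mice and close to 0 in p110αhep-/- mice.

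Fasting gave its highest count of called genes in p110αhep-/- mice on CTRL diet, with 8 higher and 2 lower (7.07% of all genes called, list median 0.23). Plin4 rose by 2.71 ± 0.28, G0s2 by 2.03 ± 0.38, Hilpda by 1.73 ± 0.14, Plin2 by 1.31 ± 0.18 and Pnpla2, the adipose triglyceride lipase, by 1.22 ± 0.12, while Pnpla3 fell by 1.98 ± 0.32 (SE, log2; limma adjusted p = 1.58e-10, 4.69e-05, 2.12e-13, 1.81e-07, 6.05e-11 and 3.19e-06). In p110αhep+/+ mice 4 were higher and 2 lower on each diet (5.45% and 4.71% of all genes on CTRL diet and HFD, list medians 0.08 and close to 0). In p110αhep-/- mice on HFD 2 were higher and 1 lower (5.9% of all genes, list median 0.10), with Plin4 at 1.92 ± 0.31, Pnpla2 at 1.25 ± 0.13 and Acsl3, an acyl-CoA synthetase of growing droplets, at -0.95 ± 0.15 (limma adjusted p = 5.43e-06, 1.65e-09 and 3.48e-06). The median over all genes was close to 0 in each of the 4 fasting comparisons. Pnpla3 was near background in every fasted group, with means of 5.17 to 5.33 and at most 1 of 6 arrays well above it. The size of its falls with fasting is therefore limited by the signal.

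In p110αhep+/+ mice the 6 called genes were the same on both diets. On CTRL diet Pnpla3 fell by 4.64 ± 0.31 and Acsl3 by 1.02 ± 0.13, while Plin4, Hsd17b11, Pnpla2 and Lipe, the hormone-sensitive lipase, rose by 0.94, 0.91, 0.69 and 0.64 (log2; limma adjusted p at most 0.00668). On HFD Pnpla3 fell by 3.80 ± 0.30 and Acsl3 by 1.31 ± 0.13, while Pnpla2, Hsd17b11, Plin4 and Lipe rose by 0.94, 0.94, 0.80 and 0.66 (limma adjusted p at most 0.0201). On HFD the call of Plin4 was lost without array weights and without the filter on dim probes (limma adjusted p = 0.0816 and 0.0716). When all probes of a gene were taken by their median, Lipe stayed under the fold threshold on both diets, at 0.42 and 0.43.

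Differences between effects were tested for the same genes as interactions. Of the 24 droplet genes, 2 were called for the genotype difference of the HFD effect in fed and 1 in fasted mice (1.34% and 1.85% of all genes), and 3 for that of the fasting effect on CTRL diet and 1 on HFD (1.31% and 1.37% of all genes). The fasting effect differed between the diets for 2 of them in p110αhep+/+ and 7 in p110αhep-/- mice (0.893% and 2.89% of all genes).

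**Figure D5:**
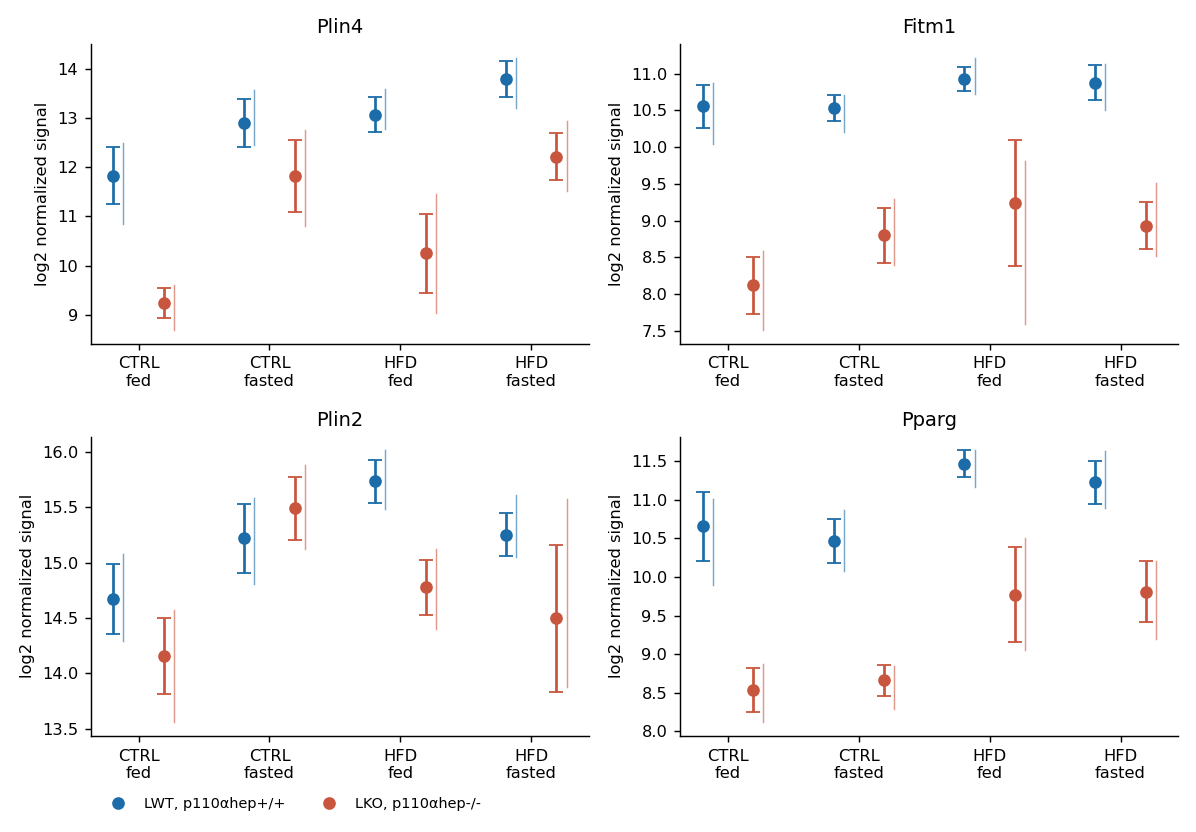
Plin4, Fitm1, Plin2 and Pparg in the 8 groups, as log2 normalized signal (vertical axes) by diet and nutritional state (horizontal axes). Points with caps are group means ± SD (n = 6) and the thin line beside each gives the lowest and highest array, blue for p110αhep+/+ and red for p110αhep-/- mice. Fitm1 and Pparg are lower in p110αhep-/- mice in all 4 settings, while Plin2 is higher in fasted p110αhep-/- mice on CTRL diet (mean 15.49) than in fed ones (14.16).

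Among 13 transcription factors and coactivators of liver lipid genes, Pparg, the nuclear receptor that drives the adipocyte program and is a known inducer of CIDE genes in fatty liver, was called in all 4 genotype comparisons. It was lower in p110αhep-/- mice by -2.14 ± 0.19 and -1.80 ± 0.18 in fed and fasted mice on CTRL diet and -1.55 ± 0.19 and -1.47 ± 0.19 on HFD (SE, log2; limma adjusted p = 1.09e-11, 2.71e-10, 1.04e-08 and 8.46e-08), without overlap of the groups. It was also higher on HFD in both genotypes and states, by 0.73 and 0.82 in fed and fasted p110αhep+/+ and 1.33 and 1.15 in fed and fasted p110αhep-/- mice (limma adjusted p = 0.00193, 0.00126, 4.12e-06 and 4.77e-05). Fasting differences of Pparg did not pass the test in any of the 4 settings.

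Of the other 12 genes of that list, those called for fasting were Srebf1, Foxo1, Ppara, Ppargc1a, Cebpb, Hnf4a and Mlxipl. Srebf1, which encodes SREBP-1, had fasting differences of -2.83 and -1.71 in p110αhep+/+ and -2.61 and -1.66 in p110αhep-/- mice on CTRL diet and HFD (limma adjusted p at most 4.17e-07), and was lower in fed p110αhep-/- mice on CTRL diet by -0.70 ± 0.21 and lower on HFD in fed p110αhep+/+ mice by -0.65 ± 0.20 (limma adjusted p = 0.0139 and 0.0143). Foxo1, a forkhead factor that insulin restrains, rose with fasting in all 4 settings by 0.67 to 0.99 (limma adjusted p at most 8.76e-05). Ppara, the nuclear receptor of the fasting response, rose in p110αhep+/+ (0.66 ± 0.07) and p110αhep-/- mice (0.78 ± 0.07) on CTRL diet, and Ppargc1a, a coactivator, rose there by 0.93 ± 0.14 and 0.83 ± 0.15 (limma adjusted p at most 1.55e-05). Ppargc1a was also higher in fed p110αhep-/- than p110αhep+/+ mice on HFD, by 0.61 ± 0.15 (limma adjusted p = 0.00132). Cebpb, a C/EBP factor, rose with fasting by 0.83 and 1.04 in p110αhep+/+ and p110αhep-/- mice on CTRL diet and by 0.95 in p110αhep-/- mice on HFD, Hnf4a, a hepatocyte nuclear receptor, rose by 0.63 in p110αhep-/- mice on HFD, and Mlxipl, which encodes the glucose-responsive ChREBP, fell by 0.82 in p110αhep-/- mice on CTRL diet (limma adjusted p at most 6.58e-05). The counts for fasting were 4 higher and 1 lower on CTRL diet and 1 and 1 on HFD in p110αhep+/+ mice, and 4 and 2 on CTRL diet and 3 and 1 on HFD in p110αhep-/- mice, where 5.45%, 4.71%, 7.07% and 5.9% of all genes were called. For genotype they were 0 higher and 2 lower in fed and 0 and 1 in fasted mice on CTRL diet, and 1 and 1 in fed and 0 and 1 in fasted mice on HFD (3.72%, 3.24%, 6.24% and 6.54% of all genes). For HFD they were 1 and 1 in fed and 1 and 0 in fasted p110αhep+/+ mice, and 1 and 0 in both states in p110αhep-/- mice (3.76%, 2.81%, 2.32% and 1.89% of all genes).

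Of 10 genes of VLDL assembly and SREBP transport, the processes CIDEB is linked to, Tm6sf2, a protein needed to load VLDL with lipid, was the only one called in any of the 12 comparisons of 2 groups. Over all genes, 1.89% to 7.07% were called per comparison. Tm6sf2 was higher in p110αhep-/- than in p110αhep+/+ mice when fed on CTRL diet, by 0.64 ± 0.09, and when fasted on HFD, by 0.71 ± 0.09 (SE, log2; limma adjusted p = 3.93e-07 and 4.27e-08). In the other 2 settings it passed the adjusted p but not the fold threshold, with 0.55 ± 0.08 in fasted mice on CTRL diet and 0.42 ± 0.09 in fed mice on HFD (limma adjusted p = 2.44e-06 and 0.000178). The groups did not overlap in any of the 4 settings. Without the fold threshold, 5, 2, 5 and 5 of the 10 genes passed for genotype (CTRL fed, CTRL fasted, HFD fed and HFD fasted). The share of all genes passing without that threshold was not worked out. These counts therefore cannot be set against the shares above. Besides Tm6sf2, Surf4, Scap and Mia3 were higher in p110αhep-/- mice where they passed, and Mia2, Mttp, Sar1b, Apob and Srebf2 were lower. Mia2 passed in all 4, at -0.50, -0.44, -0.30 and -0.47. The relatives that share the CIDE-N domain, Dffa and Dffb, which encode the DNA fragmentation factor, were called in none of the 12 comparisons. Without the fold threshold, Dffb passed with 0.21 ± 0.07 in fed mice on CTRL diet and Dffa with 0.32 ± 0.09 in fed mice on HFD for p110αhep-/- minus p110αhep+/+, and Dffa with 0.24 ± 0.09 for fasting in p110αhep-/- mice on CTRL diet (limma adjusted p = 0.033, 0.00884 and 0.0409).

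Since Cidea and Cidec are also adipocyte genes, markers of fat cells were read beside them. Of 8 white adipocyte markers, 3 to 5 were well above background on all 6 arrays of a group. Adipoq was so on 6 of the 48 arrays and Plin1 on 21, with group medians of 5.15 to 5.33 and 5.40 to 5.69. Lep, Lipe and Fabp4 were above background on all 48, and Lipe is also in the list of droplet genes. Group medians were 7.06 to 7.45 for Lep and 7.63 to 8.50 for Lipe. Retn was well above background on 25 arrays, with group medians of 5.59 to 5.85. Cfd, the serine protease adipsin, was higher in p110αhep+/+ than in p110αhep-/- mice, as Cidea was. In fed and fasted p110αhep+/+ mice its medians were 11.69 and 11.78 on CTRL diet and 13.28 and 13.71 on HFD. In p110αhep-/- mice they were 5.64 and 5.96 on CTRL diet and 8.89 and 9.18 on HFD, where Cidea stayed near background. Adig, a gene of adipocyte differentiation, moved with Cidea at lower levels, with medians of 5.72 to 5.89 in the p110αhep-/- groups, 6.4 and 6.45 in fed and fasted p110αhep+/+ mice on CTRL diet and 7.40 and 7.97 on HFD. Fabp4, a fatty acid binding protein, followed the diet instead, with medians of 10.35 to 10.60 on CTRL diet and 11.39 to 12.42 on HFD. The summed level of the 8 markers ran from 10.62 to 13.07 over the arrays of p110αhep-/- mice and from 10.97 to 15.30 over those of p110αhep+/+ mice on the log2 scale. In p110αhep+/+ mice on HFD the sum followed mainly Cfd, with sum medians of 13.85 in fed and 14.11 in fasted mice. Of 6 brown adipocyte markers, Ucp1, Zic1 and Dio2 were well above background on 0 of 48 arrays. Cox7a1, Prdm16 and Cox8b were so on 48, 41 and 34 arrays. Cox8b had group medians of 5.74 to 6.84 in p110αhep+/+ and 5.51 to 5.74 in p110αhep-/- mice. The summed level of the brown adipocyte markers, of which Cox7a1 was the brightest, had group medians of 9.86 to 10.59. The part of fat cells in the levels of Cidea and Cidec was not tested.

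The other marker lists were summed in the same way, and the sum follows the brightest genes of a list. For hepatocytes these were Alb and Serpina1a, with group means of 18.88 to 18.91 and 18.80 to 18.83. Quantile normalization ties levels at the top of the scale to their rank. The hepatocyte sum could therefore hardly vary, and it does not measure the share of hepatocytes. Medians of the summed level were 20.36 to 20.42 for hepatocytes, 14.03 to 14.34 for macrophages and Kupffer cells, 14.75 to 15.24 for stellate cells and fibroblasts, 12.85 to 13.21 for endothelial cells, 8.16 to 8.76 for cholangiocytes and 9.65 to 9.88 for T and B cells (log2, 8 groups). All 6, 6 and 5 markers of the macrophage, stellate and endothelial lists were well above background on all 48 arrays, and 1 of 4 of the cholangiocyte and 2 of 5 of the lymphocyte list. Single markers moved more than the sums. The collagen gene Col1a1 had group means from 7.01 in fasted p110αhep-/- mice on CTRL diet to 10.17 in fed p110αhep+/+ mice on HFD, and Col3a1 from 8.87 to 11.79 in the same groups. Cps1, a urea cycle enzyme of hepatocytes, had group means from 13.55 in fed p110αhep+/+ mice on HFD to 15.09 in fasted p110αhep-/- mice on HFD. Their part in the results was not tested.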

How the data were processed

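Total liver RNA of 48 mice was extracted with Tri reagent, labelled with Cy3 and hybridized on Agilent SurePrint G3 arrays. Per the file headers, the deposited scanner files hold signal intensities from Agilent Feature Extraction 10.10.1.1, with probe positions on mm9. The authors also deposited a table of log2 values, which per their methods came from filtered median signals corrected for washing batch and quantile normalized. The filter is not given in the sources used here.

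From the scanner files, log2 median signals of non-control spots were taken without background subtraction, spots with outlier flags were dropped, spots of a probe were averaged, the wash batch was removed with group means protected, and arrays were quantile normalized (limma 3.58.1, R 4.3.3). A probe was kept if well above background on at least 5 arrays of 1 group, which left 30792 probes of 20485 genes, each gene read by its brightest probe. Means of the 8 groups were fitted with array weights (0.354 to 1.72) and eBayes, two-sided, with Benjamini-Hochberg adjustment over all probes kept. For each probe, all 8 groups shared the estimate of the spread behind the SEs. The fit was tested on simulated data. Each of the 6 slides held all 8 groups, and 2 wash batches held 3 slides each. Arrays were grouped by their labels, and their number limits the precision. Alternatives covered signal, background, scaling, filter, batch, slide, weights, the deposited log2 values and each array left out.

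The 3 genes and all lists were chosen with earlier results of these data known. Named genes were the called genes of each list, up to 6 per comparison by size, the 5 genes most like each CIDE gene by each measure, Pik3ca and the markers. One gene that this rule names is not reported here. Promoter windows came from RefSeq (GRCm38.p6) and probe sequences from the array files. Replicate numbers did not pair the arrays (mean r of deviations 0.0189 for the same number in different groups and -0.0036 for other numbers).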

Additional observations from a re-analysis of the deposited data

Results flagged for a closer look

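One of 32 combinations of CIDE probe and group held an array apart from the other 5: replicate 6 of the fasted p110αhep+/+ mice on HFD had a Cideb 5' level of 9.62 (log2), the lowest of its group. Chance alone gives such a gap in about 1 in 20 groups.

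The HFD difference of Cidec had opposite signs on every slide in 2 pairs of settings, and these contrasts were not tested. It was lower by -3.48 (log2) in fasted p110αhep-/- than in fasted p110αhep+/+ mice, and by -3.52 in fasted than in fed p110αhep-/- mice.

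Of 294 differences between effects, tested as 6 interactions in 49 list genes, 21 passed limma's interaction test with Benjamini-Hochberg adjustment and a fold over 1.5 (log2, adjusted p at most 0.0481). Over all genes, 0.893% to 2.89% were called per interaction. The HFD effect in p110αhep-/- minus that in p110αhep+/+ mice was 1.02 for Fitm1 and 0.70 for Hsd17b11 in fed mice, and -1.07 for Plin2 and 0.74 for Mlxipl in fasted mice. The fasting effect differed between the genotypes in the same direction of subtraction by 1.77 for Plin4, 2.66 for Pnpla3 and 1.21 for Hilpda on CTRL diet, and by 3.58 for Pnpla3 on HFD. Pnpla3 was near background in every fasted group and in fed p110αhep-/- mice on HFD, which limits what its interactions can show.

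The fasting effect on HFD minus that on CTRL diet was -1.01 for Plin2, -0.85 for Hilpda and 1.12 for Srebf1 in p110αhep+/+ mice. In p110αhep-/- mice, where the same quantity for Cidec was -3.52, it was -1.71 for Plin2, -2.55 for G0s2, -1.40 for Hilpda, -1.13 for Fitm1, -0.64 for Fitm2, -0.61 for Hsd17b11 and -0.71 for Ppargc1a. It was positive there for Pnpla3 (1.75, again limited by levels near background), Srebf1 (0.95) and Mlxipl (1.05).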

How the results depend on the processing

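Of 522 values of the Cidea, Cidec and Cideb 3' differences under other settings, 508 stayed within the spread between replicates, and 432 values with 1 array left out all did. With the processed signal, Cidea differed between genotypes by -8.83 (fed) and -7.23 (fasted) on CTRL diet and with HFD by 1.88 in fed p110αhep-/- mice, and the genotype difference of its HFD effect in fed mice turned to 0.66. The Cideb 3' probe then gave -0.10 for genotype in fed mice on HFD, -0.31 for HFD in fasted p110αhep-/- mice and 0.17 for fasting in p110αhep+/+ mice on CTRL diet. Its HFD difference in fasted p110αhep+/+ mice turned to -0.0415 with the processed signal and -0.0119 with median scaling, which also gave -0.32 for HFD in fasted p110αhep-/- mice and 0.18 and 0.17 for fasting on CTRL diet in p110αhep+/+ and p110αhep-/- mice. Within wash batches, the HFD difference of Cidea was 2.59 in fed (batch 1) and 1.89 in fasted p110αhep+/+ mice (batch 2), and that of Cideb 0.0561 in fed p110αhep-/- mice (batch 2). Without the fold threshold, the called droplet genes numbered 13, 10, 18 and 14 for genotype (CTRL fed, CTRL fasted, HFD fed, HFD fasted), 10, 6, 7 and 6 for HFD (p110αhep+/+ fed and fasted, p110αhep-/- fed and fasted) and 14, 18 and 11 for fasting (p110αhep+/+ CTRL, p110αhep-/- CTRL and HFD). The matching shares of all genes without the fold threshold were not worked out, so these counts say nothing about the list in particular. The HFD count in fasted p110αhep+/+ mice was 1 without the filter on dim probes and 1 without array weights, and the fasting count in p110αhep-/- mice on HFD was 5 with the processed signal. With the replicate number as a block, 16 of 48 arrays correlated best with their own number and the droplet counts were 3, 3, 9 and 6 for genotype, 3, 2, 5 and 3 for HFD and 6, 6, 10 and 3 for fasting, all within 1.5 times the counts without it. The causes of these shifts were not tested. Leaving out the 2 arrays that stood apart and setting dim Cidea signals to a floor were chosen after seeing the data. Near background, the size of a Cidea fold is limited by the signal.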
